A study of Mus musculus with 6 samples.

Results

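The circadian clock genes described here are 10 genes of the daily timekeeping machinery: Per1, Per2, Per3, Cry1, Arntl, Nr1d1, Nr1d2, Dbp, Tef and Ciart. They were found among the 60354 features of the count files by matching Ensembl identifiers to gene symbols in GENCODE M21, and all 10 had a row and passed the filter on low counts. The brains were those of control mice 2, 5 and 10 and of PLDP mice 17, 22 and 26, 3 per diet and a part of the 13 mice kept on each diet. All were male C57BL/6NCrSlc mice that were 16 weeks old when the diets began. The PLDP mice received for 16 weeks food of modified AIN-93M with 20% PLDP. PLDP is an enzymatic hydrolysate of pig liver. The control mice ate modified AIN-93M without PLDP, adjusted in calories. In the paper's list of ingredients, the PLDP food also held less casein and soybean oil and more α-cornstarch and cystine than the control food. Every mouse then went through 17 days of behavioral tests, during which no PLDP diet was given, and RNA was taken from whole brain on day 18, so that regions of the brain are mixed in each value. The hour of the day at which each brain was taken is not given in the sources used here, and diet and hour cannot be told apart.

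The mammalian clock is a loop of transcription and repression that turns about once a day in nearly every cell, including neurons and glia. ARNTL (also called BMAL1) pairs with CLOCK or NPAS2 and switches on genes that carry E-boxes, among them the Per and Cry genes, Nr1d1, Dbp and Ciart. PER and CRY proteins return to the nucleus and shut this activation down. The nuclear receptors NR1D1 and NR1D2 (REV-ERB alpha and beta) repress Arntl through ROR elements, and DBP and TEF activate genes with D-boxes. In most mouse tissues the transcripts of Nr1d1, Dbp, Per1, Per2, Per3, Tef and Ciart peak between the light phase and dusk, while those of Arntl, Npas2, Clock and Nfil3 peak at the opposite time. In the brain, the suprachiasmatic nucleus sets the phase of the other clocks, and Per1 and Per2 also respond to glucocorticoids and to neuronal activity.

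Promoter windows of 250 bases before to 50 bases after the annotated start were taken from RefSeq (GRCm38.p6), in which 9 of the 10 genes were found, with 12 windows in all. Per2 was not matched. Windows were searched on both strands for the E-box CACGTG, its variant CACGTT, the D-box TTATGTAA or TTACGTAA, the cAMP response element TGACGTCA and the ROR element. Of all 32851 promoter windows in the reference, 7.15% held the E-box, 4.68% its variant, 1.06% a D-box, 1.79% the cAMP response element and 0.773% a ROR element. The E-box was found in 4 of the clock genes (Per1, Cry1, Ciart and Tef), the variant in 2 (Cry1 and Nr1d1), the D-box in Per3 and the ROR element in Arntl, while the cAMP response element was found in 0. The windows of Nr1d2 and Dbp held no such run of letters. These counts are of genes with a match in any of their windows, while the shares over the reference are of single windows. The 6 windows below belong to the 5 genes with an unadjusted p under 0.05 between the diets and to Arntl, the activator of the loop, and capitals mark the matches. Per1, Tef and Arntl have a second window in the reference, which is not printed; that of Tef holds an E-box as well, and those of Per1 and Arntl hold none of the motifs. They lie on the + strand at chr11:69098699-69098998 for Per1, on the - strand at chr11:98775328-98775627 for Nr1d1, on the - strand at chr4:151044616-151044915 for Per3, on the - strand at chr3:95882179-95882478 for Ciart, on the + strand at chr15:81802423-81802722 for Tef and on the + strand at chr7:113207261-113207560 for Arntl.
Per1: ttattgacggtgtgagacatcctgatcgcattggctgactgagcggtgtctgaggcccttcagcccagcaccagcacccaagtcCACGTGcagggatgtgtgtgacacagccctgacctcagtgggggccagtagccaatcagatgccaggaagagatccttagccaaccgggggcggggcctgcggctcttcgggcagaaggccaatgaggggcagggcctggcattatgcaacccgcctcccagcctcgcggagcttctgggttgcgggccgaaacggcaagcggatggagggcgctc
Nr1d1: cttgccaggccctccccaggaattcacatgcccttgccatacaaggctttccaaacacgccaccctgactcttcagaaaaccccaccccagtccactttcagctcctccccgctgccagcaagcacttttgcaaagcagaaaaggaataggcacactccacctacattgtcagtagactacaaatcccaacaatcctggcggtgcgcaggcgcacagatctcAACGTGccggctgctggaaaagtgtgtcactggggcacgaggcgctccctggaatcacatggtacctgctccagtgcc
Per3: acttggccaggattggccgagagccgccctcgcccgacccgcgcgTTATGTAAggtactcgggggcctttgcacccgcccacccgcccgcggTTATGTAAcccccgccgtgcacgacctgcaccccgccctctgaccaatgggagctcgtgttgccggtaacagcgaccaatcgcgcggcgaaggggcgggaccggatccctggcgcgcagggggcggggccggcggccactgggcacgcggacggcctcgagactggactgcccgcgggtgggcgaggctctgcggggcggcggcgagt
Ciart: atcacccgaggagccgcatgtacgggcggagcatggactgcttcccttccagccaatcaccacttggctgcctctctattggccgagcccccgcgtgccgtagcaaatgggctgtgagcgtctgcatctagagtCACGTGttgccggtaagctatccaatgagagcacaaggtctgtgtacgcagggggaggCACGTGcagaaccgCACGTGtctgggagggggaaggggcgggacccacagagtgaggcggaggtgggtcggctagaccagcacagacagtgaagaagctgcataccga
Tef: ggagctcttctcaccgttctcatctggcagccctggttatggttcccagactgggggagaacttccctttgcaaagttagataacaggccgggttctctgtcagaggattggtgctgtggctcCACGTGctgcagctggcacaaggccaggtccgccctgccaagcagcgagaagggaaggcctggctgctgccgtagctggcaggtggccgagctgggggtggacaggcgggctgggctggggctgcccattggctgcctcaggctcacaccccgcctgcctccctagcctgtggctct
Arntl: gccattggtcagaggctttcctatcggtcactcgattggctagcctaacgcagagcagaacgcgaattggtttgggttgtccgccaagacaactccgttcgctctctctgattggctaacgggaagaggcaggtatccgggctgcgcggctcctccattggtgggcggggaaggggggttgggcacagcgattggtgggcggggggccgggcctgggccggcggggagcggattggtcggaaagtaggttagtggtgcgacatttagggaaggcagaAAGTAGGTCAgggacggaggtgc

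In these windows the E-box of Per1 began 166 bases before the start, and that of Tef 127 bases before it. Ciart held 3 E-boxes, 116, 58 and 44 bases before its start. The variant in Nr1d1 lay 28 bases before the start, and the D-boxes of Per3 lay 205 and 158 bases before it. The ROR element of Arntl, a run of letters of the kind that ROR and REV-ERB receptors bind, began at base 28 after the start. A match of letters is a description of the window and does not show that a factor is bound there.

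Library totals lay between 18797061 and 23938729 counts per mouse, and mitochondrial genes took between 2.53% and 2.80% of them. Neuron, astrocyte and microglia markers were present in every mouse. At an unadjusted p under 0.05 by edgeR, 1 of 3 astrocyte and 1 of 3 microglia markers were lower on the PLDP diet, against 0 of 3 neuron markers and 3.69% lower over all features tested. Cerebellar granule cell markers summed to between 340.2 and 423 CPM (counts scaled to the library total after TMM) in the control mice and between 328 and 411 CPM in the PLDP mice, and 0 of 3 passed the threshold. Hindbrain and spinal cord markers moved with the diet, with 5 of 6 lower on PLDP by the same threshold and summed levels of 57.2 to 65.1 CPM in the control mice against 26.5 to 42.8 in the PLDP mice; the part of these markers in the differences of the clock genes was not tested. Markers of the suprachiasmatic nucleus had summed levels of 66.7 to 70.5 CPM on the control diet and 69.6 to 71.3 on PLDP, and 0 of the 5 tested of 7 passed that threshold by edgeR's quasi-likelihood test. Of this list, Nms, Six6 and Prok2 had at most 3, 9 and 21 counts in any mouse. The sum came almost wholly from the other markers of the list in whole brain, and the part of the nucleus in it was not tested. Pineal markers summed to between 0.880 and 1.16 CPM and retina markers to between 2.42 and 3.13 CPM. Of the 4 pituitary markers, Prl, Gh and Tshb had at most 2 counts in any mouse, while Pomc, which hypothalamic neurons also express, had between 46 and 73 counts in every mouse.

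The clock genes differed little between the diets, and not in 1 direction. Fold changes are given as log2 of PLDP over control, so that a value above 0 is higher on PLDP. At an unadjusted p under 0.05 from edgeR's quasi-likelihood test, 2 of the 10 rose in the PLDP mice (Nr1d1 and Per1) and 3 fell (Ciart, Per3 and Tef). Over all 18580 features tested, 8.6% passed this threshold, 4.91% as higher and 3.69% as lower. The number of lower features was 685, and it was 1072 without PLDP mouse 17, 1046 with no filter on low counts and 362 by DESeq2. The changes ran from a drop of 15.9% for Ciart to a rise of 11.9% for Nr1d1. After Benjamini-Hochberg adjustment over all features, 0 of the 10 passed 0.05 by edgeR, DESeq2 or limma voom, with smallest adjusted p of 0.321, 0.345 and 0.334, while 5 had an unadjusted p under 0.05 by each tool. Without PLDP mouse 22, 0 of the clock genes passed the unadjusted threshold as higher, and without control mouse 2 only 1 did. Over all features, 0.0323% passed the adjusted threshold. The same 5 genes were those in which the 3 PLDP mice did not overlap the 3 control mice, which held for 14.2% of all features. The median log2 fold change of the 10 genes was -0.00045, against -0.00062 over all features, and the median size of the change was 0.098 against 0.074. Whole-brain RNA cannot tell fewer cells of a type from less RNA per cell.

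**Figure D1:**
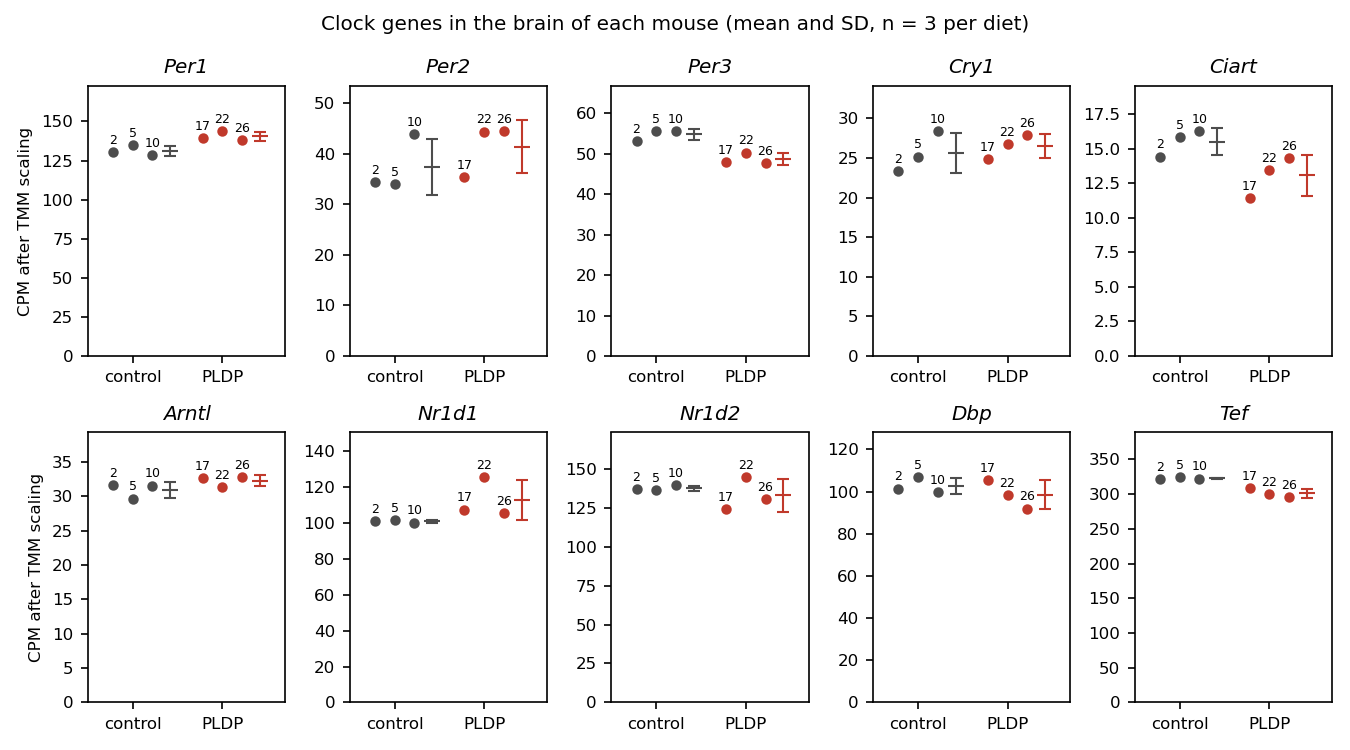
Level of each clock gene in CPM after TMM scaling, from 0, for every control mouse (grey) and PLDP mouse (red), numbered by mouse, with the mean and SD of the 3 mice beside the points. The diets do not overlap in Per1, Nr1d1, Per3, Ciart and Tef, and overlap in the other 5 genes.

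The Per genes encode the PERIOD proteins, the repressors of the loop. Per1 (ENSMUSG00000020893, chromosome 11 of GRCm38 from 69095217 to 69109960) had 130.3, 134.9 and 128.4 CPM in control mice 2, 5 and 10, and 139.4, 143.9 and 137.8 CPM in PLDP mice 17, 22 and 26. All PLDP mice were above all control mice, although the gap between the nearest mice of the diets was narrow. The mean rose from 131 ± 3.34 to 140.4 ± 3.14 CPM (n = 3 mice each, ± SD), or 0.10 as a log2 fold change (SE 0.04; edgeR unadjusted p = 0.0327, Benjamini-Hochberg adjusted p = 0.525). The log2 fold change was 0.091 (edgeR unadjusted p = 0.101) without control mouse 2, 0.081 (unadjusted p = 0.11) without control mouse 10 and 0.078 (unadjusted p = 0.118) without PLDP mouse 22, so its size stayed similar while the call was lost.

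Per2 (ENSMUSG00000055866, chromosome 1 from 91415982 to 91459324) had 34.4, 34.0 and 43.8 CPM on the control diet and 35.4, 44.4 and 44.5 CPM on the PLDP diet. The diets overlapped, because control mouse 10 was close to the higher PLDP mice and PLDP mouse 17 close to the lower control mice. Its log2 fold change was 0.15 with a 95% interval from -0.053 to 0.35 (edgeR unadjusted p = 0.14). In edgeR it moved to 0.27 (unadjusted p = 0.00767) without control mouse 10 and to 0.25 (unadjusted p = 0.00638) without PLDP mouse 17. In the other 4 fits that left out 1 mouse (control mouse 2 or 5, PLDP mouse 22 or 26) it was smaller, between 0.082 and 0.095, and did not pass.

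Per3 (ENSMUSG00000028957, chromosome 4 from 151003652 to 151044665) went the other way. Per3 had 53.2, 55.7 and 55.6 CPM on the control diet and 48.0, 50.3 and 47.6 CPM on the PLDP diet, so every PLDP mouse was below every control mouse. The mean fell from 54.8 ± 1.41 to 48.7 ± 1.45 CPM (n = 3 mice each, ± SD), or -0.17 as a log2 fold change (SE 0.05; edgeR unadjusted p = 0.004, Benjamini-Hochberg adjusted p = 0.321). It had the smallest p of the 10 genes, and the unadjusted p stayed under 0.05 in all 6 fits that left out 1 mouse, between 0.00332 and 0.0192.

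Cry1 (ENSMUSG00000020038, chromosome 10 from 85131700 to 85185064), which encodes the cryptochrome that acts with PER proteins as repressor, had 23.3, 25.2 and 28.4 CPM on the control diet and 24.8, 26.8 and 27.9 CPM on the PLDP diet. All PLDP values lay within the range of the control mice. Its log2 fold change was 0.05, with a 95% interval from -0.12 to 0.21 (edgeR unadjusted p = 0.554 by the quasi-likelihood test), and it was -0.017 without control mouse 2.

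Ciart (ENSMUSG00000038550, chromosome 3 from 95878503 to 95882251) encodes CHRONO, a repressor that binds ARNTL, and has the E-boxes printed above. It had 14.4, 15.8 and 16.3 CPM on the control diet and 11.4, 13.5 and 14.3 CPM on the PLDP diet. The PLDP mice were all below the control mice, with PLDP mouse 26 close under control mouse 2. Ciart fell from 15.5 ± 0.970 to 13.1 ± 1.48 CPM (n = 3 mice each, ± SD), or -0.25 as a log2 fold change (SE 0.09; edgeR unadjusted p = 0.0173, Benjamini-Hochberg adjusted p = 0.451). This was the largest change among the 10 genes, in the gene with the fewest reads, between 246 and 349 counts per mouse. The edgeR unadjusted p was 0.0663 without control mouse 10, and without PLDP mouse 17, the lowest mouse, the log2 fold change was -0.16 (unadjusted p = 0.0886).

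Arntl (ENSMUSG00000055116, chromosome 7 from 113207465 to 113314126), the activator, had 31.6, 29.7 and 31.6 CPM on the control diet and 32.7, 31.4 and 32.8 CPM on the PLDP diet. The diets overlapped through PLDP mouse 22. Its log2 fold change was 0.06, with a 95% interval from -0.068 to 0.19 (edgeR unadjusted p = 0.336 by the quasi-likelihood test), and its p stayed above 0.05 with each mouse left out. The log2 fold change then ran from 0.029 without control mouse 5 to 0.079 without PLDP mouse 22. Arntl was among the least variable of the 10 genes, with the highest mouse 1.10 times the lowest. The antisense gene Gm45355, which shares 33 exon bases with Arntl, had 0 counts in every mouse.

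Nr1d1 and Nr1d2 encode the REV-ERB receptors that repress Arntl. Nr1d1 (ENSMUSG00000020889, chromosome 11 from 98767932 to 98775333) had 100.9, 101.5 and 100.2 CPM on the control diet and 107.4, 125.4 and 105.6 CPM on the PLDP diet. The control mice were nearly alike, and PLDP mouse 22 stood above the other PLDP mice. Nr1d1 rose from 100.9 ± 0.645 to 113 ± 10.9 CPM (n = 3 mice each, ± SD), or 0.16 as a log2 fold change (SE 0.06; edgeR unadjusted p = 0.0112, Benjamini-Hochberg adjusted p = 0.424). Without PLDP mouse 22 the edgeR log2 fold change was 0.08 (unadjusted p = 0.132). Nr1d1 shares 263 exon bases, 8.55% of its exons, with Thra on the opposite strand, and Thra had a log2 fold change of -0.02 (edgeR adjusted p = 0.923).

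Nr1d2 (ENSMUSG00000021775, chromosome 14 from 18204054 to 18239127) had 136.7, 136.5 and 139.4 CPM on the control diet and 124, 144.4 and 130.5 CPM on the PLDP diet. PLDP mouse 22 was the highest of all mice for this gene as well, and PLDP mouse 17 the lowest. The log2 fold change was -0.05 (95% interval -0.16 to 0.06, unadjusted p = 0.363). In edgeR it was 0.0017 without PLDP mouse 17 and -0.11 (unadjusted p = 0.0294) without PLDP mouse 22.

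Dbp and Tef encode activators at D-boxes and carry the rhythm to output genes. Dbp (ENSMUSG00000059824, chromosome 7 from 45705088 to 45710203) had 101.4, 106.7 and 99.7 CPM on the control diet and 105.5, 98.4 and 91.8 CPM on the PLDP diet. The diets overlapped, with the log2 fold change at -0.06 (95% interval -0.17 to 0.05, unadjusted p = 0.295 by the quasi-likelihood test), and at -0.11 (edgeR unadjusted p = 0.0331) without PLDP mouse 17. It was -0.011 (edgeR unadjusted p = 0.852) without PLDP mouse 26 and -0.028 (unadjusted p = 0.646) without control mouse 5. Dbp shares 539 exon bases, 18.01% of its exons, with Sphk2 on the opposite strand, which had a log2 fold change of 0.11 (edgeR adjusted p = 0.644).

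Tef (ENSMUSG00000022389, chromosome 15 from 81802421 to 81826863) had the most reads of the 10 genes. It had 322, 324 and 322 CPM on the control diet and 309, 300.4 and 295 CPM on the PLDP diet. The control mice were within 1.01 times of each other, and all PLDP mice were below them. Tef fell from 323 ± 1.06 to 301 ± 6.67 CPM (n = 3 mice each, ± SD), or -0.10 as a log2 fold change (SE 0.04; edgeR unadjusted p = 0.0161, Benjamini-Hochberg adjusted p = 0.448). The unadjusted p was 0.0703 without PLDP mouse 26 and under 0.05 in the other 5 fits that left out 1 mouse. Tef shares 193 exon bases with Gm17597 on the opposite strand, which had 1.08 ± 0.317 CPM in control and 0.733 ± 0.237 CPM in PLDP mice.

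**Figure D2:**
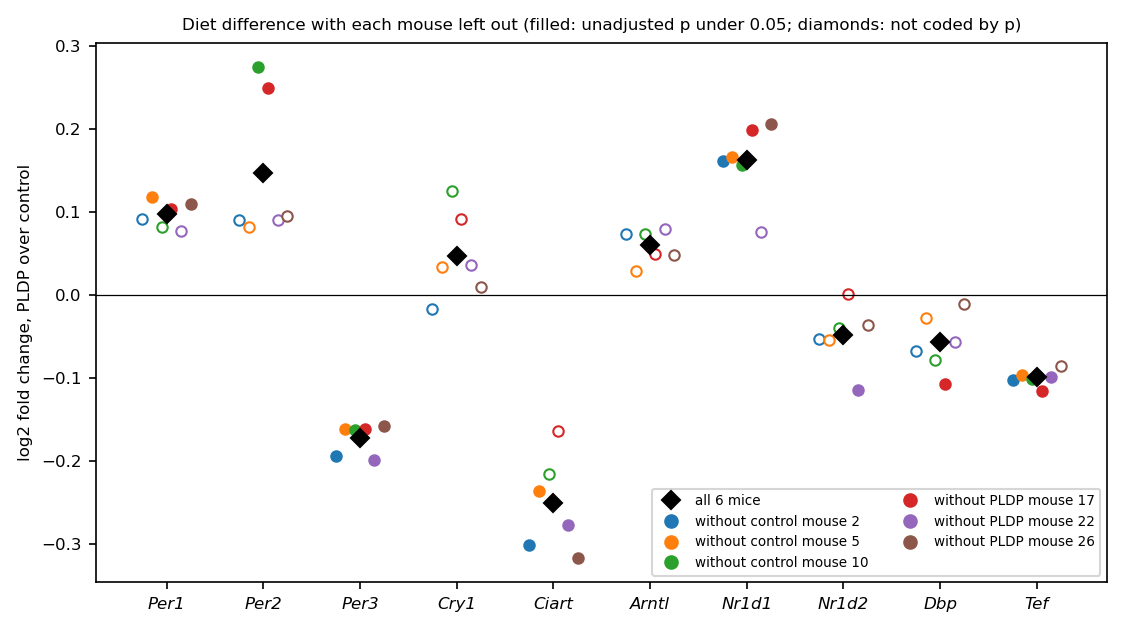
Log2 fold change of PLDP over control mice for each clock gene with all 6 mice (diamond) and with each mouse left out (colored circles, filled where the unadjusted p was under 0.05). Per3 stayed between -0.20 and -0.16, Nr1d1 dropped to 0.08 without PLDP mouse 22, and Per2 was above 0.2 only without control mouse 10 or PLDP mouse 17.

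Across the 10 genes the highest mouse was between 1.10 and 1.42 times the lowest, with a median of 1.17. Over the 9395 features whose mean CPM lay within the range of the clock genes, the median of this ratio was 1.14. No mouse was at the same end for most of the genes. PLDP mouse 22 was the highest in 3 genes, control mouse 5 in 3, PLDP mouse 26 in 2 and control mouse 10 in 2. PLDP mouse 26 was the lowest in 3 genes, control mouse 5, control mouse 10 and PLDP mouse 17 in 2 each, and control mouse 2 in 1.

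The ratios of paralogs within the set were chosen after their values were seen and are given with no test. The log2 ratio of Per1 to Per3, which the scaling of the libraries does not affect, was 1.29, 1.28 and 1.21 on the control diet and 1.54, 1.52 and 1.53 on PLDP. The ratio was higher in all PLDP mice, by 0.27 on average. The log2 ratio of Nr1d1 to Nr1d2 was -0.44, -0.43 and -0.48 on the control diet and -0.21, -0.20 and -0.31 on PLDP. It was also higher in all PLDP mice, by 0.21 on average.

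Genes of the evening and morning phases were compared as a check on the time of sampling. The mean log2 CPM of 8 evening-phase genes (Nr1d1, Nr1d2, Dbp, Tef, Per1, Per2, Per3 and Ciart) was 6.34 ± 0.04 on the control diet and 6.32 ± 0.06 on PLDP (n = 3 mice each, ± SD). That of 4 morning-phase genes (Arntl, Npas2, Clock and Nfil3) was 5.03 ± 0.01 and 5.10 ± 0.05. The difference between the phases was 1.28, 1.33 and 1.33 on the control diet and 1.21, 1.25 and 1.18 on PLDP. It was lower in all PLDP mice, by 0.10 on average, and by 0.079 to 0.12 with each mouse left out. This score is taken over chosen genes and is given with no test. Within the evening phase the genes did not move together, since 2 of the 8 rose and 3 fell at the unadjusted threshold. Over all features, 4.91% passed it as higher and 3.69% as lower. The median log2 fold change of the 8 was -0.05. All 4 morning-phase genes had log2 fold changes above 0, as did 9247 of all 18580 features tested. The median of the 4 was 0.04, and Nfil3 alone of them had an edgeR unadjusted p under 0.05.

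**Figure D3:**
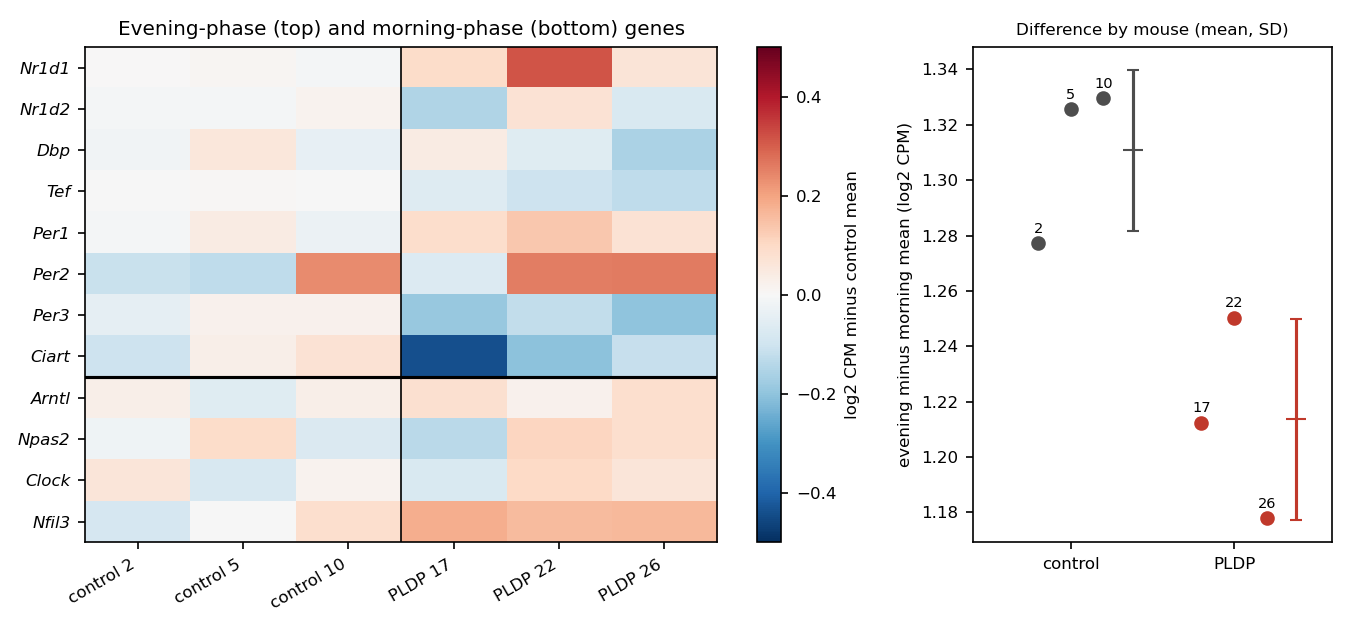
Left, log2 CPM of evening-phase genes (upper 8 rows) and morning-phase genes (lower 4 rows) in each mouse, minus the control mean of the gene, on a color scale from -0.5 (blue) to 0.5 (red). Right, the mean of the evening-phase genes minus that of the morning-phase genes by mouse with mean and SD, on an axis that does not start at 0; the PLDP mice lie between 1.18 and 1.25 and the control mice between 1.28 and 1.33.

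Of 23 other components of the clock, all tested, 3 were higher and 1 lower on PLDP (edgeR unadjusted p under 0.05), and 0 passed after adjustment by edgeR, DESeq2 or limma voom. Over all features, 4.91% were higher and 3.69% lower. DESeq2 called 3 of the 23 at the unadjusted threshold, beside 926 features in all where edgeR called 1598, and limma voom called 4. Their median log2 fold change was 0.02. The 4 genes were Bhlhe40, Bhlhe41, Rorb and Nfil3. Bhlhe40 and Bhlhe41, which encode the repressors DEC1 and DEC2 that compete for E-boxes, moved in opposite directions. Bhlhe40 rose from 103 ± 0.848 to 114 ± 7.44 CPM (n = 3 mice each, ± SD), or 0.15 as a log2 fold change (SE 0.05; edgeR adjusted p = 0.399). Bhlhe41 fell from 71.1 ± 4.31 to 64.8 ± 0.980 CPM (n = 3 mice each, ± SD), or -0.13 as a log2 fold change (SE 0.05; edgeR adjusted p = 0.476). Nfil3, which encodes the repressor that opposes DBP and TEF at D-boxes, rose from 16.7 ± 0.962 to 18.7 ± 0.157 CPM, and all PLDP mice were above all control mice. Its log2 fold change was 0.17 (edgeR unadjusted p = 0.0443, adjusted p = 0.564 in edgeR). Rorb, a receptor of the ROR family, had a log2 fold change of 0.23 (adjusted p = 0.45 in edgeR), with the diets overlapping.

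The partners of ARNTL did not pass the test. Clock had 94.8 ± 4.70 CPM on the control diet and 96.7 ± 6.15 CPM on PLDP, and Npas2 had 23.6 ± 1.40 and 24.0 ± 2.16 CPM (n = 3 mice each, ± SD). Cry2, the other cryptochrome, had 134 ± 2.02 and 136 ± 3.07 CPM, and Hlf, the third D-box activator beside DBP and TEF, had 149 ± 3.52 and 144 ± 11.6 CPM. Their unadjusted p from edgeR's quasi-likelihood test lay between 0.41 for Hlf and 0.801 for Npas2. Without PLDP mouse 26, the number of other components with an unadjusted p under 0.05 was 1 rather than 4, and it was 2 without control mouse 2 or control mouse 5. By direction, 0 were higher without PLDP mouse 26 and 1 without control mouse 2, and 0 were lower without control mouse 5.

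Of 10 genes known to cycle with the clock in many mouse tissues, 1 was higher and 0 lower on PLDP at the unadjusted threshold by edgeR, and 0 passed after adjustment. DESeq2 and limma voom also called 1 gene each. A count of 1 in 10 is near the 8.6% called over all features and is not a result about these genes as a group. The gene was Noct, which encodes nocturnin, a phosphatase of NADP(H) whose transcript cycles in many tissues. Noct had 48.9, 46.7 and 46.9 CPM on the control diet and 52.1, 53.9 and 58.5 CPM on the PLDP diet. All PLDP mice were above all control mice, with a log2 fold change of 0.20 (standard error 0.06, edgeR unadjusted p = 0.002, adjusted p = 0.283). The number of output genes called was 2 without control mouse 10 and 3 without PLDP mouse 17.

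**Figure D4:**
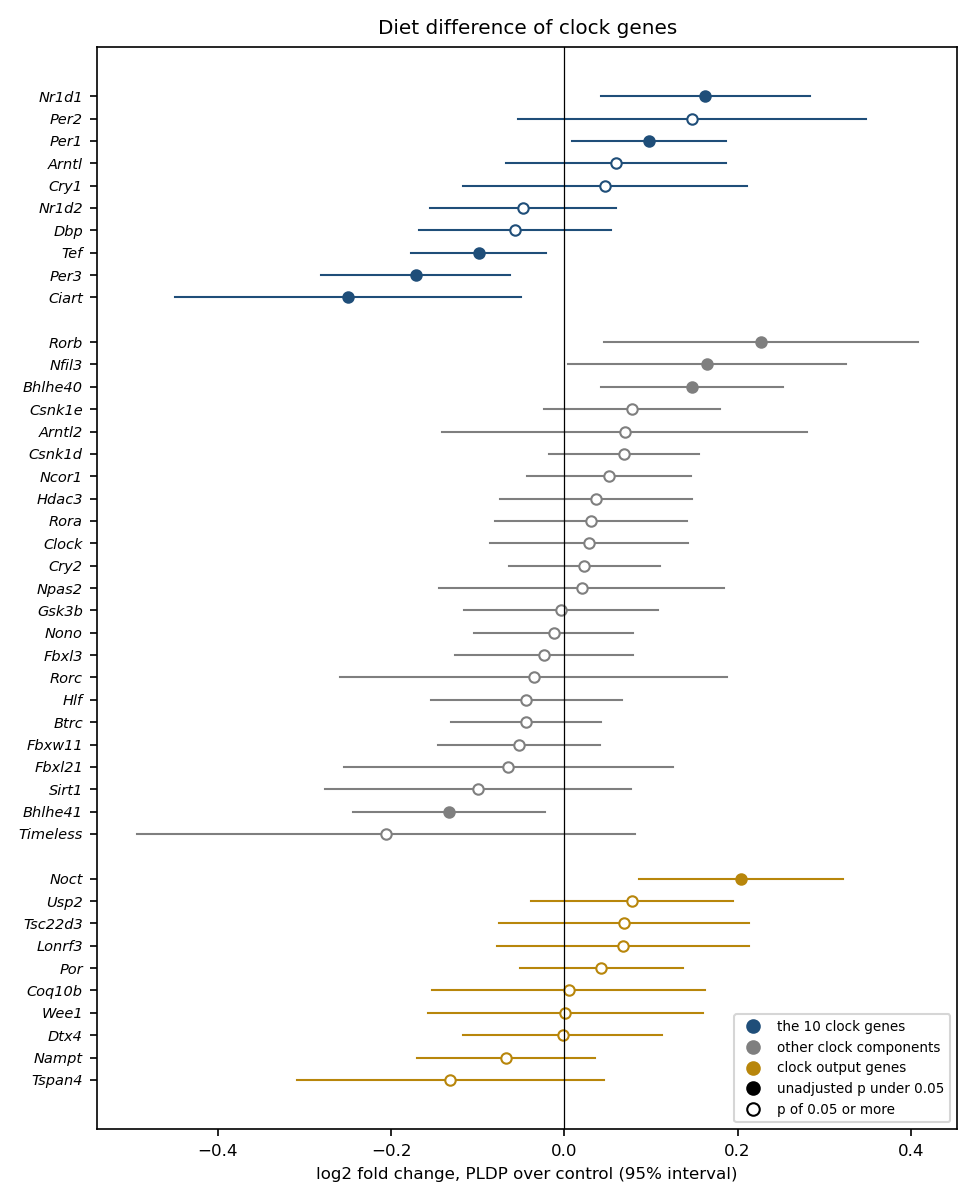
Log2 fold change of PLDP over control mice with its 95% interval for the 10 clock genes (blue), 23 other components (grey) and 10 output genes (gold), filled where the unadjusted p from edgeR's quasi-likelihood test was under 0.05. Every interval lies between -0.5 and 0.5, and 5, 4 and 1 genes of the lists are filled.

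Genes of other inputs to Per1 and Per2 are given beside them. Of 10 early genes that respond to neuronal activity, 3 were higher (4.91% over all features) and 0 lower on PLDP by edgeR's unadjusted p (Dusp1, Arc and Fosb, with log2 fold changes of 0.32, 0.26 and 0.19), and 0 by DESeq2 or limma voom. Their summed levels were 867, 880 and 769 CPM on the control diet and 729, 997 and 1091 CPM on the PLDP diet, with PLDP mouse 17 the lowest of all and PLDP mouse 26 the highest. Of 8 glucocorticoid-responsive genes, 3 were higher, again beside 4.91% over all features, and 0 lower (Zbtb16, Cdkn1a and Fkbp5, with log2 fold changes of 0.79, 0.32 and 0.24), and 0 passed after adjustment by edgeR, DESeq2 or limma voom. In Cdkn1a and Fkbp5 the diets overlapped. Zbtb16 had 21.1 CPM in PLDP mouse 17, against 36.3 and 36.9 CPM in PLDP mice 22 and 26 and 19.5 CPM in control mouse 2. Tsc22d3 is in this list and in that of output genes. The summed levels of the 8 were 507, 491 and 586 CPM on the control diet and 537, 561 and 622 CPM on the PLDP diet. As in Per2, control mouse 5 was the lowest, PLDP mouse 26 the highest, and control mouse 10 was above the other control mice. The ends of the order in Per2 were near ties, with 34.0 and 34.4 CPM in control mice 5 and 2. PLDP mice 26 and 22 had 44.5 and 44.4 CPM. Control mouse 10 was above PLDP mouse 22 in the summed levels and below it in Per2. Per1 had another order, with control mouse 10 the lowest of all mice, control mouse 5 the highest control mouse, PLDP mouse 22 the highest of all and PLDP mouse 26 the lowest PLDP mouse. The part of these genes' inputs in the levels of Per1 and Per2 was not tested.

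Per kilobase of exon, the 10 genes fell into an upper and a lower group. The length used joins all annotated exons of a gene, so the order between genes depends on the annotation. In the control mice Tef had 41.0 ± 0.135 CPM per kilobase, Dbp 34.3 ± 1.21, Nr1d1 32.8 ± 0.210, Nr1d2 25.4 ± 0.299 and Per1 23.3 ± 0.593 (n = 3 mice each, ± SD). The lower group held Cry1 with 7.68 ± 0.771, Ciart with 6.86 ± 0.429, Per2 with 6.39 ± 0.948, Per3 with 5.71 ± 0.147 and Arntl with 4.11 ± 0.147 CPM per kilobase. Cry1, Ciart and Per2 did not differ from their neighbours in this order beyond their spread. In the PLDP mice Nr1d1 stood above Dbp, with 36.7 ± 3.56 against 32.9 ± 2.28 CPM per kilobase, within their spread.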

How the data were processed

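Polyadenylated RNA of whole brain was sequenced in 3 control and 3 PLDP mice with a stranded kit. The authors deposited raw read counts per gene, 1 file per mouse. The submitters' processing notes name cutadapt 2.9, HISAT2 2.2.0, featureCounts 2.6.0 and DESeq2 1.6.3, and the builds GRCh38 and GRCm38. Strand setting, annotation and treatment of shared reads are not given in the sources used here, so values of overlapping genes are uncertain. Of 55034 Ensembl identifiers, 54777 were found in GENCODE M21, and the 5320 numbered features went through the same filter as the others.

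The analysis used edgeR 4.0.16 in R 4.3.3: filterByExpr by diet (minimum count 10, minimum total count 15), TMM scaling, and the quasi-likelihood test (glmQLFit, glmQLFTest) of diet without covariates, two-sided and adjusted by Benjamini-Hochberg over all 18580 features tested. CPM values are counts scaled to library totals after TMM, and 95% intervals are those of this fit. The threshold was an unadjusted p under 0.05, since the study used 0.05 without saying whether it was adjusted. With 3 mice against 3, an exact permutation test cannot give p under 0.1. On simulated data, 189 of 196 genes changed 2-fold passed the threshold, and 4.82% of unchanged genes did; changes as small as those of the clock genes were not simulated. Alternatives were other scaling factors (relative log expression, upper quartile, library size only), no filter, at least 10 counts in every mouse, DESeq2 1.42.0, limma voom 3.58.1 and leaving out each mouse.

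The genes and lists were chosen with earlier results of these data known. The text names all 10 clock genes, the other clock and output genes with an unadjusted p under 0.05, Clock, Npas2, Cry2, Nfil3 and Hlf, up to 3 genes with the smallest p of a marker list, and any annotated gene that overlaps exons of a clock gene. Prl, Gh, Tshb, Pomc, Nms, Six6, Prok2 and the ratios of paralogs were chosen after their values were seen. Figures used Python 3.11.15, pandas 2.3.3 and matplotlib 3.10.9. Each sample is a separate mouse. Some marker genes are not reported here, nor is the oligodendrocyte list, so its part in the differences between the diets is not described.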

Additional observations from a re-analysis of the deposited data

How the results depend on the processing

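With all mice kept, 69 of the 70 alternative fits of the 10 clock genes kept the direction and the side of the threshold of the values reported, the exception being Per2, with a log2 fold change of 0.14 and an unadjusted p of 0.0254 when no filter on low counts was applied; the cause was not tested. The number of clock genes with an unadjusted p under 0.05 stayed between 4 and 6 in the fits that left out 1 mouse, with 0 of them higher without PLDP mouse 22 and 1 higher without control mouse 2, against 2 with all mice. In those fits the log2 fold change ran from 0.078 to 0.12 for Per1, from 0.082 to 0.27 for Per2, from -0.20 to -0.16 for Per3, from -0.017 to 0.13 for Cry1, from -0.32 to -0.16 for Ciart, from 0.029 to 0.079 for Arntl, from 0.076 to 0.21 for Nr1d1, from -0.11 to 0.0017 for Nr1d2, from -0.11 to -0.011 for Dbp and from -0.12 to -0.085 for Tef. Cry1 reversed to -0.017 without control mouse 2 and Nr1d2 to 0.0017 without PLDP mouse 17. The number of other clock components called ran from 1 to 5, and that of output genes from 1 to 3. Over all features, DESeq2 called 926 at an unadjusted p under 0.05 where edgeR called 1598. Ciart had the fewest counts of the 10 genes, between 246 and 349 per mouse. No paired analysis was possible because the control and PLDP mice share no number.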
